A study of Mus musculus with 15 samples.

Results

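The question addressed here was how much RNA of myeloid, endothelial, mural and fibroblast cells accompanied sorted dorsal root ganglion (DRG) neurons, and whether surgery added any. The 30 genes described are standard markers of these cells, chosen by name from the 54108 gene symbols of the expression table, and all 30 were found. They comprise 17 myeloid genes, 7 endothelial genes, 3 mural genes and 3 fibroblast genes. The study sequenced RNA from about 3000 WGA-488 backlabeled cells per mouse, sorted from the L2 to L6 ganglia of 15 adult female C57BL/6J mice by dye, size and viability, so that 1 mouse gave 1 library. In the SCI group (n = 5) the spinal cord was compressed with a vessel clip after a T10 laminectomy, and in the sham group (n = 5) the laminectomy was made without the clip. In the naïve group (n = 5) no surgery was performed. All mice received the dye by injection into the skin of both hindpaws, and ganglia of operated mice were taken 4 days after surgery. Operated mice were caged singly and received gentamicin and saline, while naïve mice were kept in groups, so that surgery and housing cannot be told apart against naïve mice.

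Macrophages reside in the DRG around neuron bodies and along its vessels, and they are known to increase in number when peripheral axons are cut. Endothelial cells line the ganglion's dense capillary network, and mural cells, the pericytes and smooth muscle cells, wrap these vessels. Fibroblasts form the capsule and the collagenous matrix between the nerve fascicles.

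Values are reads per gene scaled by 1 number per library, called CPM here. Libraries held 3000636 to 4385542 reads in SCI, 2568656 to 7389487 in sham and 1321632 to 7465583 in naïve mice, so that 1 read was worth between 0.141 CPM (naïve 5) and 0.791 CPM (naïve 1). The 4 shallowest libraries were naïve 1, naïve 4, naïve 3 and sham 2. In all, 16000 genes averaged 1 CPM or more, and of these 11581 exceeded 10 CPM and 3359 exceeded 100 CPM. Of the 30 markers, 29 averaged 1 CPM or more, 9 exceeded 10 CPM and 1, Pdgfrb, exceeded 100 CPM. All 30 together took 28240 reads, or 0.0460% of the reads of the 15 libraries, while 10 sensory neuron genes took 0.288%. Such shares depend on the genes listed. In further lists described below, 14 fibroblast genes took 0.115% and 10 mural genes 0.0561%, more than all 30 markers. There 18 macrophage genes took 0.00939% and 14 endothelial genes 0.00808%.

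By the medians of the listed markers, the name "traces" held for the myeloid and endothelial genes and less well for the mural and fibroblast genes. To compare genes of unequal length, mean CPM was divided by the exon length of the gene in kilobases. On that scale the median marker had 3.77 CPM per kb for myeloid cells, 0.361 for endothelial cells, 19.8 for mural cells and 10.3 for fibroblasts. The median was 80.7 CPM per kb for 10 satellite glia genes, 46.4 for 8 Schwann cell genes and 101 for 10 sensory neuron genes. It was 0.214 for 5 erythrocyte genes and 0.0165 for 9 lymphocyte genes. The mural and fibroblast medians rest on 3 genes each, among them Tagln with 1.57 and Pdgfra with 1.22 CPM per kb. In further lists described below, the medians were 0.464 for 18 macrophage and 0.485 for 14 endothelial genes. They were 3.23 for 10 mural and 4.58 for 14 fibroblast genes, near that of the myeloid markers. The highest markers per kb were Acta2 with 38.7, Cd74 with 25.7 and Pdgfrb with 19.8 CPM per kb, and the lowest were Igf1 with 0.278, Flt1 with 0.206 and Ptprc with 0.188 CPM per kb. Endothelial markers other than Egfl7 thus lay within the range of the erythrocyte genes, and every mural and fibroblast marker lay below the median of the Schwann cell genes.

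**Figure D1:**
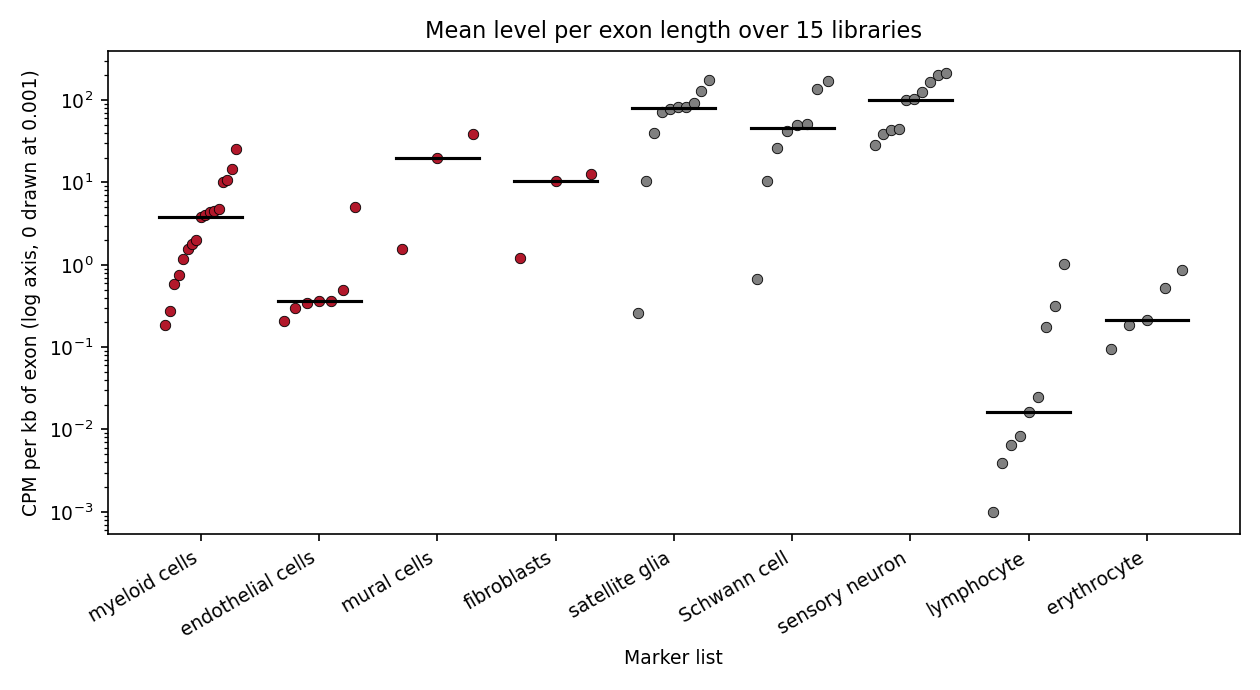
Mean level of each gene over 15 libraries, in CPM per kilobase of exon on a log axis, for the 4 marker classes described here (red) and 5 other lists (gray). Each point is a gene and each line a median. The medians were 3.77, 0.361, 19.8 and 10.3 CPM per kb for myeloid, endothelial, mural and fibroblast markers, against 101 for sensory neuron genes, and a lymphocyte gene with 0 reads is drawn at 0.001.

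Summed over its genes, each class overlapped between all 3 groups. The 17 myeloid genes summed to 32.5, 179, 88.6, 117 and 56.2 CPM in SCI libraries 1 to 5, 185, 34.6, 129.9, 342 and 95.9 CPM in sham libraries, and 361, 58.1, 105, 176 and 35.9 CPM in naïve libraries. The lowest and highest myeloid libraries thus differed by over 10-fold, and the groups overlapped. The means were 94.7 ± 57.0 CPM in SCI, 157 ± 116 CPM in sham and 147 ± 131 CPM in naïve mice (SD, n = 5 each), and without sham 4 and naïve 1 they were 111 ± 62.8 CPM in sham and 93.9 ± 62.0 CPM in naïve mice (SD, n = 4 each). The 7 endothelial genes summed to 47.5, 26.0, 29.3, 27.9 and 31.1 CPM in SCI, 38.6, 43.9, 29.0, 29.2 and 39.5 CPM in sham, and 24.5, 22.4, 21.9, 16.8 and 31.6 CPM in naïve libraries. All operated libraries exceeded the 4 lower naïve libraries, and naïve 5, the deepest, lay within the operated range. This order rests on Egfl7, which made up 19.1 CPM of the sum in SCI 2, 14.5 CPM in naïve 3 and 9.50 CPM in naïve 4. Without Egfl7, SCI 2 would lie below naïve 3 and naïve 4. How many other gene sums are ordered so was not counted. The 3 mural genes summed to 213 ± 40.9 CPM in SCI, 199 ± 48.7 CPM in sham and 178 ± 61.0 CPM in naïve mice (SD, n = 5 each), and the 3 fibroblast genes to 103 ± 35.6 CPM in SCI, 118 ± 28.0 CPM in sham and 116 ± 26.8 CPM in naïve mice (SD, n = 5 each). Since these are bulk samples, fewer cells of a type and less RNA per cell cannot be told apart.

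**Figure D2:**
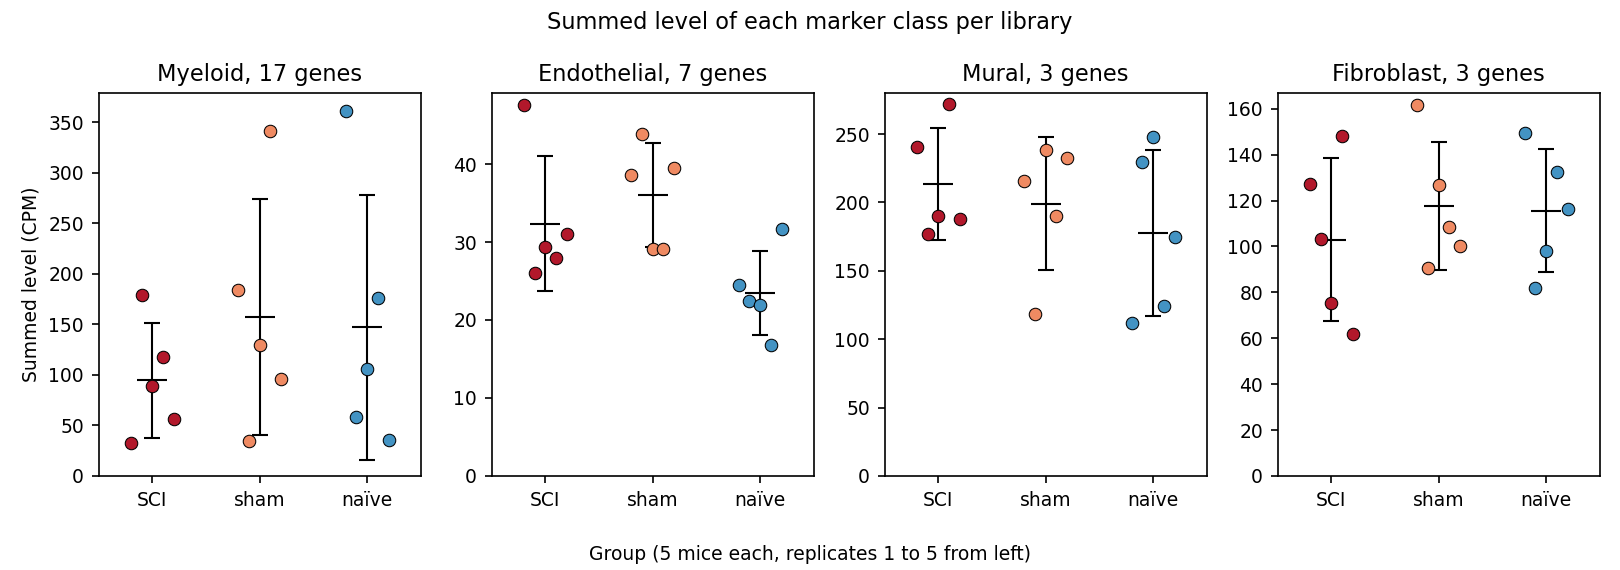
Summed CPM of each marker class in every library, with SCI, sham and naïve mice from left to right in each panel. Points are libraries and bars the mean ± SD of 5. Myeloid sums ran from 32.5 to 361 CPM and overlapped between groups, while endothelial sums ran from 16.8 to 47.5 CPM.

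The myeloid markers did not vary as a single block across libraries. Different libraries held the highest values of different markers, and the markers were put into 3 sets by that library. The peaks described for each set thus follow from how the sets were made. Sham 4 was the highest library for 5 markers (Cd74, Ctss, Tyrobp, Fcer1g and Ptprc), SCI 2 for 6 (Csf1r, Aif1, Cx3cr1, C1qa, C1qb and C1qc), and naïve 1 for 4 (Lyz2, Cd68, S100a8 and S100a9). Sham 1 was highest for the remaining markers, Mrc1 and Igf1. Some placements were close. Csf1r had 18.8 CPM in SCI 2 and 17.5 CPM in sham 3, and Mrc1 9.94 CPM in sham 1 and 9.54 CPM in SCI 2. Promoter sequences of 2 markers of each set are printed to show what stands upstream of genes that peaked in different libraries, and the pairs were chosen after their values were seen. Each is the 250 bases before the RefSeq transcription start in GRCm38.p6, read 5′ to 3′ on the strand of the gene. Capitals mark GAGGAA on either strand (TTCCTC when on the other strand), the core of the sites that PU.1 binds. PU.1, encoded by Spi1, is the factor that specifies the macrophage lineage.
C1qb, chr4:136886201-136886450, minus strand: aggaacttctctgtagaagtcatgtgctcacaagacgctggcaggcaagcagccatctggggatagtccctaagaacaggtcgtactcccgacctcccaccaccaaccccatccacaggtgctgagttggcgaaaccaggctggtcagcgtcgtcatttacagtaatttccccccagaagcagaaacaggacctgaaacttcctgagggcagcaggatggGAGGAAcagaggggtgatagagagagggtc
C1qc, chr4:136892915-136893164, minus strand: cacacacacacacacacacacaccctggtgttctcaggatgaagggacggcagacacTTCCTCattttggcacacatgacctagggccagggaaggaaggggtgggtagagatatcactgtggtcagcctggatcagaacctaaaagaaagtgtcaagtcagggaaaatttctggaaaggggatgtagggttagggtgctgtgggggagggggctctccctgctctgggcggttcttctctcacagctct
Fcer1g, chr1:171234350-171234599, minus strand: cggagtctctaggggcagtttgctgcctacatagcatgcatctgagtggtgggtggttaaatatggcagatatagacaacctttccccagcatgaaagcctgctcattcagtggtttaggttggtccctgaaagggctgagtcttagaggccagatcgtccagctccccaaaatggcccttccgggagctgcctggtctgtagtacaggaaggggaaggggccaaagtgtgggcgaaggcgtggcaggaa
Ctss, chr3:95526536-95526785, plus strand: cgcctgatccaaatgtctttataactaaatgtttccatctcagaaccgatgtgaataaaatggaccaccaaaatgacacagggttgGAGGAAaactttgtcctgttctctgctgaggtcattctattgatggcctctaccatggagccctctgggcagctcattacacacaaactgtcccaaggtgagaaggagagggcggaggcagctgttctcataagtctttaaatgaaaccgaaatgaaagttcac
S100a8, chr3:90668821-90669070, plus strand: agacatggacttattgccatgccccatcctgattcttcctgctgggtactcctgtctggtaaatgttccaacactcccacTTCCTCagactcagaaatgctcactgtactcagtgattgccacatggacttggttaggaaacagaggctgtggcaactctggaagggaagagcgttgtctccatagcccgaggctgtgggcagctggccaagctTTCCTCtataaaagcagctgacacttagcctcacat
S100a9, chr3:90695722-90695971, minus strand: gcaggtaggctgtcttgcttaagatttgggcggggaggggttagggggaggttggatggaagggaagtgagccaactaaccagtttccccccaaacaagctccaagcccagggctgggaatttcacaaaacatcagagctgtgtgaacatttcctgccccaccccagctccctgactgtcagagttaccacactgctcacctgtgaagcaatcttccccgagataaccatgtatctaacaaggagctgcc
The letters occurred once upstream of C1qb, C1qc and Ctss, at 2 places upstream of S100a8, and not in the windows of Fcer1g and S100a9. Across the RefSeq windows, 7639 of 32851 (23.3%) held them, and 9 of 14 windows (64.3%) of the 13 myeloid markers that matched the table did. Each set of markers thus holds a window with the letters, and presence of the letters did not separate the sets.

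In the first set, Tyrobp and Fcer1g encode adaptor chains that pass signals from activating receptors, and Ctss encodes cathepsin S, a protease of the class II pathway. Tyrobp had 0.566, 3.10, 9.56, 2.84 and 2.09 CPM in SCI mice, 12.1, 0.813, 2.75, 44.6 and 1.93 CPM in sham mice, and 16.6, 0.973, 3.31, 5.12 and 0.141 CPM in naïve mice. Ctss had 1.98, 12.4, 12.9, 9.04 and 8.02 CPM in SCI mice, 21.7, 0.407, 8.64, 73.9 and 4.38 CPM in sham mice, and 24.5, 3.89, 7.03, 15.3 and 1.97 CPM in naïve mice. In both genes sham 4 stood above every other library, and sham 1 and naïve 1 came next. Fcer1g reached 19.9 CPM in sham 4 and 12.7 CPM in naïve 1, with 5.26 CPM or less in each of the other libraries and 0 reads in SCI 5 and sham 2. Ptprc, which encodes the leukocyte antigen CD45, had 13.6 CPM in sham 4, 11.1 CPM in naïve 1 and 4.97 CPM or less elsewhere. Cd74, the invariant chain that escorts class II molecules, was the most abundant myeloid marker, with 26.3 ± 13.3 CPM in SCI, 55.5 ± 47.7 CPM in sham and 47.8 ± 33.2 CPM in naïve mice (SD, n = 5 each) and a peak of 135 CPM in sham 4.

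The second set holds macrophage genes and was formed only by a peak in SCI 2. Whether it stands for a kind of macrophage was not tested. C1qa, C1qb and C1qc encode the chains of complement C1q, Csf1r the receptor that keeps macrophages alive, Cx3cr1 the fractalkine receptor, and Aif1 the macrophage protein IBA1. C1qa had 1.98, 14.6, 1.65, 4.39 and 1.74 CPM in SCI mice, 5.97, 2.03, 7.07, 2.90 and 2.45 CPM in sham mice, and 0.791, 2.60, 6.20, 7.31 and 1.41 CPM in naïve mice. Cx3cr1 had 1.41, 12.2, 0.330, 3.62 and 1.05 CPM in SCI mice, 5.68, 0.407, 5.50, 2.35 and 1.23 CPM in sham mice, and 0, 0.324, 4.55, 0 and 0.703 CPM in naïve mice. SCI 2 held the highest value in both, while sham 4, the peak of the first set, held 2.90 CPM of C1qa and 2.35 CPM of Cx3cr1. C1qb reached 12.2 CPM and C1qc 12.9 CPM in SCI 2, and C1qc was next highest in naïve 4, at 11.7 CPM, with 0 reads in SCI 3. Csf1r ranged between 1.22 CPM in sham 2 and 18.8 CPM in SCI 2. Of its exon bases 15.1% overlap Hmgxb3 on the opposite strand, whose mean was 71.8 CPM, and since the counting's strand setting is not given in the sources used here, some Csf1r reads may belong to that gene. Aif1 reached 4.53 CPM in SCI 2 and had 0 reads in naïve 1.

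In the third set, Lyz2 encodes a lysozyme, Cd68 a lysosomal glycoprotein, and S100a8 and S100a9 the subunits of calprotectin, the main cytosolic protein of neutrophils. Lyz2 had 2.83, 20.8, 1.98, 23.2 and 5.58 CPM in SCI mice, 14.2, 1.63, 11.8, 15.6 and 8.59 CPM in sham mice, and 149, 5.19, 9.10, 13.9 and 1.97 CPM in naïve mice. Naïve 1 thus held more than 6 times the Lyz2 of any other library. Of its transcript 75-mers 5.96% are shared with Lyz1, which had at most 0.698 CPM in any library. S100a8 had 0, 0, 5.60, 0 and 0 CPM in SCI mice, 0.284, 0, 0, 0.362 and 0.526 CPM in sham mice, and 11.9, 0, 0, 0 and 0.141 CPM in naïve mice. S100a9 reached 22.9 CPM in naïve 1 and 5.60 CPM in SCI 3, with at most 0.724 CPM in each of the other libraries. These values rest on few reads, since S100a8 had 40 reads and S100a9 51 reads in all libraries together. Cd68 was steadier, with 17.4 CPM in naïve 1 and between 1.46 and 7.75 CPM elsewhere.

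**Figure D3:**
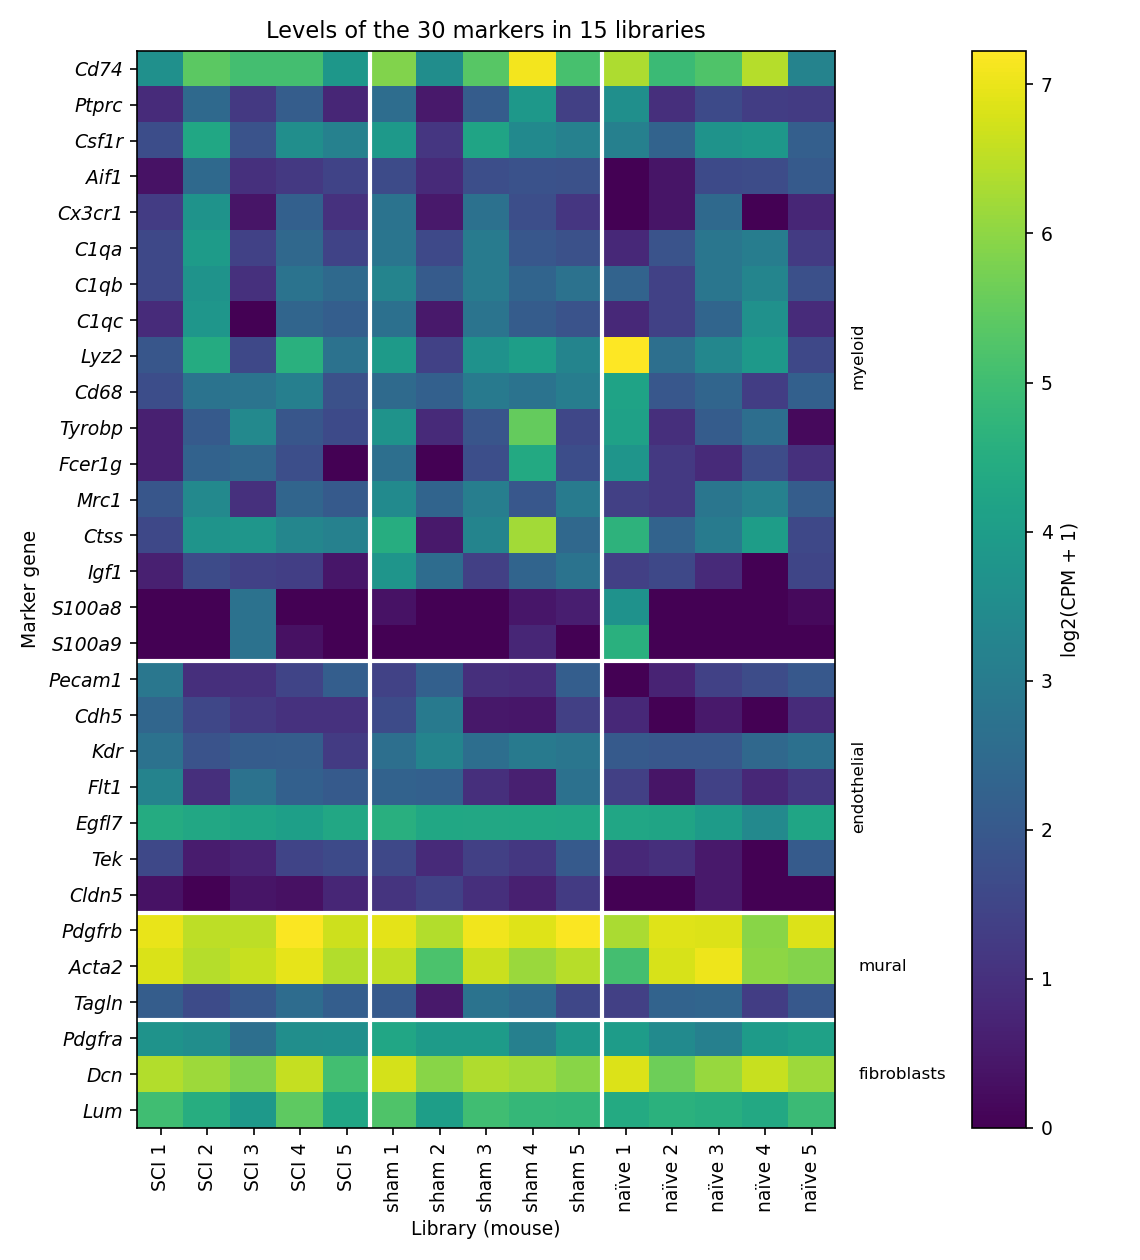
Level of each of the 30 markers (rows, by class) in each of 15 libraries (columns, SCI, sham and naïve from left to right), as log2 of CPM plus 1. Cd74, Tyrobp, Fcer1g, Ctss and Ptprc peaked in sham 4, C1qa to C1qc, Csf1r and Cx3cr1 in SCI 2, and Lyz2, S100a8 and S100a9 in naïve 1. Pdgfrb, Acta2 and Dcn were bright in every column.

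Further lists of the same cell types followed these patterns in part. Of 18 further macrophage genes 12 reached the tested level, and the highest means were those of P2ry12, a purine receptor (31.2 CPM), Laptm5, a lysosomal membrane protein (20.1 CPM), and Mpeg1, the pore protein perforin-2 (10.9 CPM). Laptm5 reached 143 CPM in sham 4 and 38.9 CPM or less elsewhere. Their sum was 74.4 ± 26.2 CPM in SCI, 125 ± 93.3 CPM in sham and 69.3 ± 18.0 CPM in naïve mice (SD, n = 5 each), and 85.4 ± 34.0 CPM in sham mice without sham 4 (SD, n = 4). P2ry12, with 31.2 CPM of a mean sum of 89.6 CPM over 15 libraries, varied less and stayed between 20.5 and 44.0 CPM in every library. Which cells its reads came from was not tested. Class II genes varied otherwise again. H2-Eb1, H2-Ab1 and H2-Aa, chains of the class II molecules that Cd74 escorts, had means of 18.0, 16.8 and 14.2 CPM, and sham 4, the peak of Cd74, had 9.06 CPM of H2-Aa against 38.0 CPM in naïve 4. The 9 neutrophil genes summed to 39.5 CPM in naïve 1, 8.90 CPM at most in any other library, and their highest means were 1.52 CPM for Ngp, a granule protein, 0.773 CPM for Mmp9, a gelatinase, and 0.570 CPM for Csf3r, the receptor of granulocyte colony-stimulating factor. Among them Cxcr2 had 0 reads in all libraries, which allows up to 3 reads, and Ly6g was detected in sham 1 alone. The 9 lymphocyte genes summed to 1.46 to 5.38 CPM per library, led by Cd79a, Cd4 and Nkg7 with means of 1.49, 1.28 and 0.160 CPM, and the 5 erythrocyte genes to at most 6.92 CPM, led by Hba-a2, Alas2 and Hbb-bs with means of 0.571, 0.443 and 0.404 CPM. The part that any single cell type had in the differences between libraries was not tested.

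Endothelial markers were at the lowest level of the 4 classes, and 6 of 7 had a mean of at least 1 CPM. Egfl7, a protein that endothelial cells secrete, made up most of the class sum and was the most even of them, with 20.6, 19.1, 17.1, 16.0 and 19.2 CPM in SCI mice, 22.6, 18.7, 19.0, 18.8 and 18.2 CPM in sham mice, and 18.2, 17.5, 14.5, 9.50 and 18.0 CPM in naïve mice. Its spread over the 15 libraries, 16.6% of the mean, was below the median of 20.3% over all tested genes. Pecam1, the junction protein CD31, and Tek, the angiopoietin receptor, averaged 2.11 and 1.41 CPM over the 15 libraries. Kdr and Flt1 encode receptors of vascular endothelial growth factor, Cdh5 the cadherin that joins endothelial cells, and Cldn5 the claudin of tight vessels. Cdh5 (GRCm38, chr8:104101625-104144511, plus strand) had 4.24, 1.91, 1.32, 1.03 and 1.05 CPM in SCI mice, 2.13, 6.91, 0.393, 0.362 and 1.58 CPM in sham mice, and 0.791, 0, 0.413, 0 and 0.844 CPM in naïve mice. All SCI libraries lay above all naïve libraries, and the sham libraries overlapped both. The separation of Cdh5 rests on few reads, 15, 8, 4, 4 and 3 in SCI and 1, 0, 1, 0 and 6 in naïve libraries. Flt1 (chr5:147561604-147726011, minus strand) had 8.49, 0.954, 5.60, 3.62 and 3.14 CPM in SCI mice, 3.83, 3.66, 0.981, 0.543 and 5.44 CPM in sham mice, and 1.58, 0.324, 1.65, 0.731 and 1.27 CPM in naïve mice. Here 4 of 5 SCI and 3 of 5 sham libraries exceeded the naïve maximum, on 74 reads in SCI, 75 in sham and 17 in naïve mice. Kdr (chr5:75932827-75978458, minus strand) had 5.66, 2.62, 3.30, 3.36 and 1.40 CPM in SCI mice, 5.26, 8.54, 5.10, 6.70 and 6.14 CPM in sham mice, and 3.16, 2.92, 2.89, 4.39 and 5.34 CPM in naïve mice, so that it averaged highest in sham mice, and its SCI and naïve ranges overlapped.

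Cldn5 was too scarce for the main test, with 34 reads in all libraries, but its reads fell unevenly. The gene (GRCm38, chr16:18776847-18778262, plus strand) had 0.283, 0, 0.330, 0.258 and 0.698 CPM in SCI mice, 1.14, 1.63, 0.981, 0.543 and 1.40 CPM in sham mice, and 0, 0, 0.413, 0 and 0 CPM in naïve mice. In reads this was 5 in SCI, 28 in sham and 1 in naïve mice. All 5 sham libraries lay above all naïve libraries, but sham 4, the lowest of them, rested on 3 reads. With 1 read, naïve 1 would stand at 0.791 CPM and naïve 4 at 0.731 CPM, above sham 4. Their 0 reads therefore cannot set them apart from it. Of the tested genes, which exclude Cldn5, 0.588% had all sham above all naïve libraries. The share among scarcer genes was not counted. Per library read the sham to naïve ratio was 16.5, with an exact 95% interval of 2.73 to 675 that covers counting error only. The deepest library, naïve 5, had 0 reads of Cldn5, while sham 2, with fewer reads in all, had 4. In a limma fit without a filter, over 31731 genes, sham and naïve mice differed in Cldn5 by 0.97 on the log2 scale (SE 0.17, unadjusted p = 2.7e-05, adjusted p = 0.288), and SCI and sham mice by -0.70 (SE 0.17, adjusted p = 0.718).

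**Figure D4:**
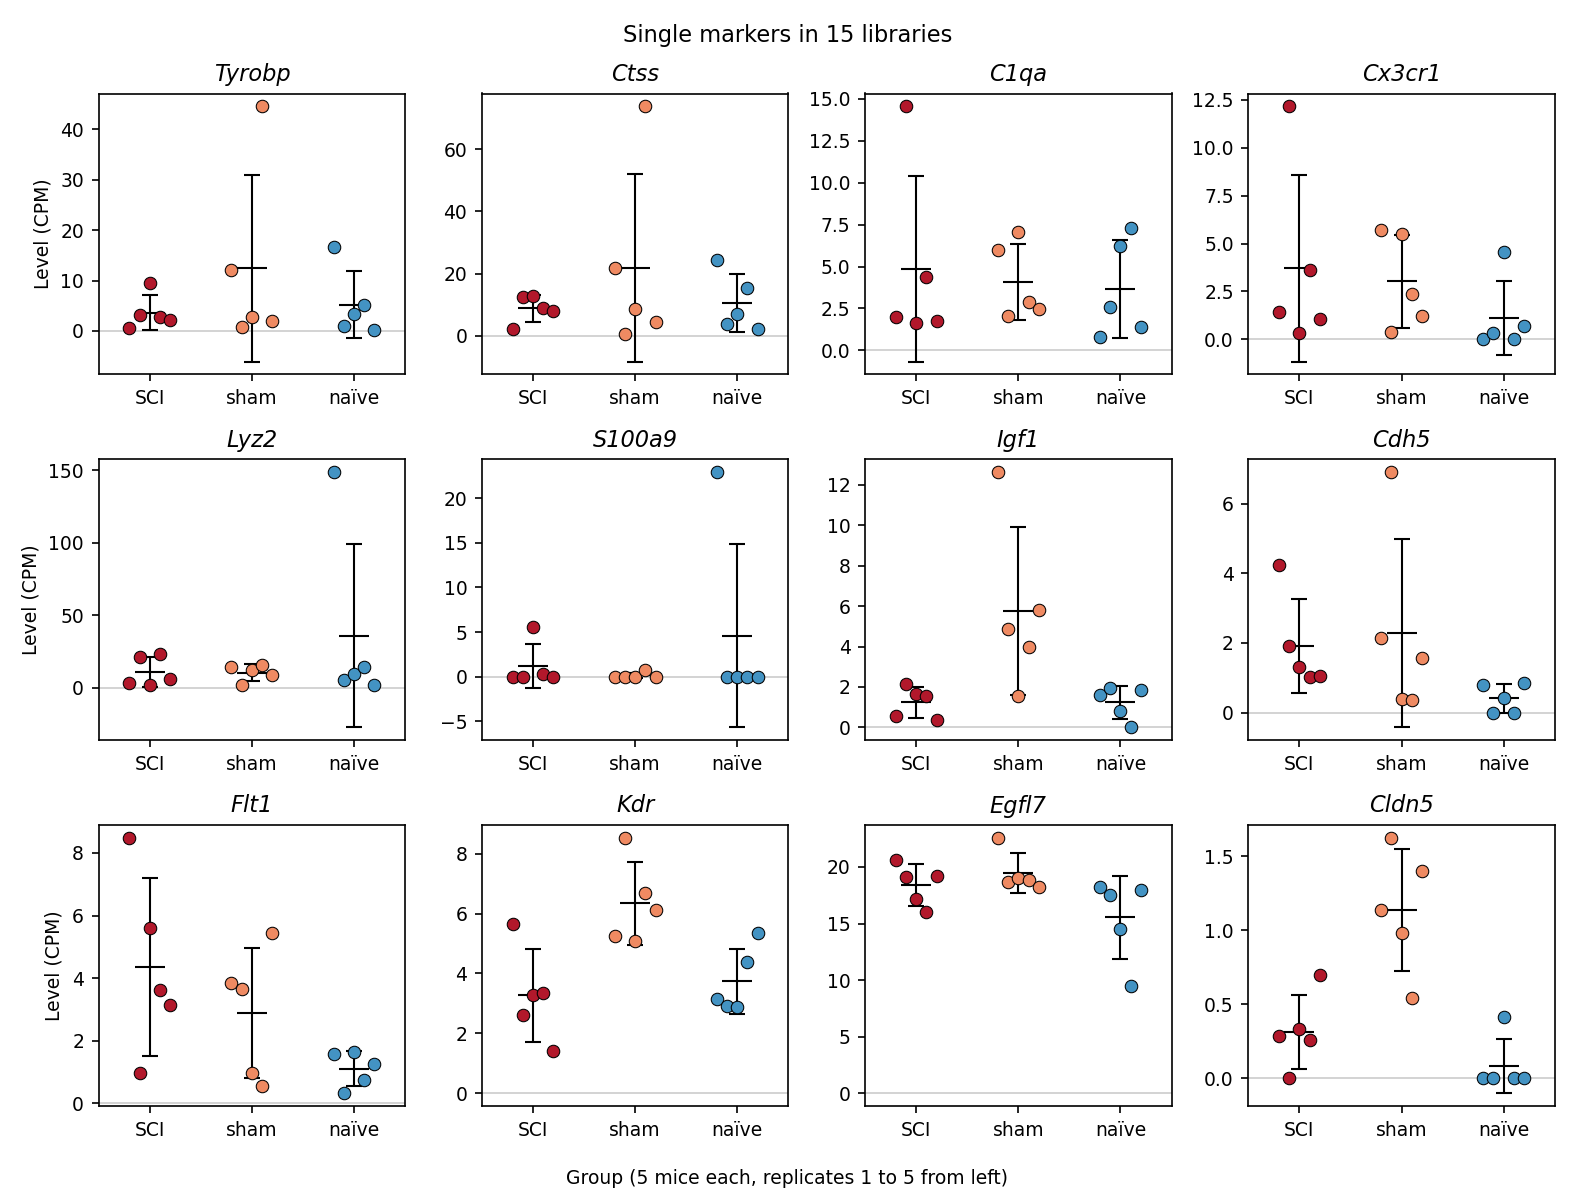
CPM of 12 markers in each library, with SCI, sham and naïve mice from left to right. Points are libraries, and bars the mean ± SD of 5. In Tyrobp, Ctss, C1qa, Cx3cr1, Lyz2 and S100a9 a single library reached far above its group. In Cdh5 and Flt1 most operated libraries lay above the naïve ones, in Igf1, Kdr and Cldn5 most sham libraries were highest, and Egfl7 was even.

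Of 14 further endothelial genes 9 reached the tested level, led by Ramp2, a receptor-modifying protein (40.5 CPM), Esam, an adhesion molecule (12.6 CPM), and Vwf, von Willebrand factor (10.6 CPM). Their sum was 88.2 ± 17.6 CPM in SCI, 85.4 ± 11.8 CPM in sham and 72.5 ± 5.71 CPM in naïve mice (SD, n = 5 each). Partners of the receptors were abundant in the sorted cells. Of 13 such genes 10 had a mean above 10 CPM, among them Vegfa, the ligand of Kdr and Flt1 (243 CPM), Igf1r, the receptor of Igf1 (163 CPM), and Angpt2, a ligand of Tek (118 CPM).

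Mural markers were the most abundant of the 4 classes in summed level, but the levels differed widely between mural genes. Pdgfrb, the receptor that recruits pericytes, had 126, 90.4, 90.3, 144 and 102 CPM in SCI mice, 121, 82.9, 133, 116 and 145 CPM in sham mice, and 77.5, 115, 113, 59.9 and 114 CPM in naïve mice. Acta2, smooth muscle actin, had 111, 84.2, 96.5, 123 and 82.3 CPM in SCI mice, 91.6, 35.4, 99.5, 70.1 and 85.9 CPM in sham mice, and 32.4, 110.0, 131, 62.9 and 58.3 CPM in naïve mice. Pdgfrb was lowest in naïve 4, naïve 1 and sham 2, and Acta2 in naïve 1, sham 2, naïve 5 and naïve 4. Tagln, the smooth muscle protein transgelin, averaged only 3.12 CPM, with 0.407 CPM in sham 2 and 5.69 CPM in sham 3, and 62.4% of its exon bases overlap the antisense gene Gm48529, which had at most 3.16 CPM. Another 5.43% overlap Pcsk7 on the opposite strand, whose mean was 61.1 CPM, so that some Tagln reads may belong to it. All 10 further mural genes reached the tested level, and 4 of them exceeded 10 CPM. The highest means were 182 CPM for Rgs5, a regulator of G-protein signaling in pericytes, and 181 CPM for Myh11, smooth muscle myosin. Notch3, a receptor of arterial mural cells, followed with 99.6 CPM. Des, Vtn, Abcc9, Higd1b, Cnn1 and Kcnj8 had means of 7.69, 6.34, 5.62, 2.83, 2.49 and 1.92 CPM. Which cells the reads of the abundant mural genes came from was not tested. The 10 genes summed to 593 ± 75.7 CPM in SCI, 597 ± 149 CPM in sham and 483 ± 143 CPM in naïve mice (SD, n = 5 each). Notch3 had 21.1 CPM in sham 2, 39.5 CPM in naïve 1 and 32.2 CPM in naïve 4, and 87.6 CPM or more elsewhere, whereas Rgs5 stayed between 146 and 237 CPM in all libraries. Naïve 1, naïve 4 and sham 2 are among the 4 shallowest libraries, while naïve 3, of nearly the depth of sham 2, had the highest Acta2 of all libraries and 121 CPM of Notch3. The part of depth in these values was not tested.

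Fibroblast markers had the lowest median spread of the 4 classes. Dcn and Lum encode the proteoglycans decorin and lumican of the collagen matrix, and Pdgfra the growth factor receptor of fibroblasts. Dcn averaged 67.4 ± 24.6 CPM in SCI, 76.4 ± 19.2 CPM in sham and 79.7 ± 26.0 CPM in naïve mice, and Lum 25.5 ± 11.2 CPM in SCI, 27.3 ± 7.70 CPM in sham and 23.0 ± 3.75 CPM in naïve mice (SD, n = 5 each). Pdgfra ranged between 5.27 and 12.2 CPM in SCI mice, 7.79 and 18.5 CPM in sham mice, and 7.86 and 16.5 CPM in naïve mice. The groups overlapped in all 3 genes. The spread over the 15 libraries was 29.3% to 30.6% of the mean for these genes, compared with 60.3% to 304% for the myeloid markers. Of 14 further fibroblast genes 13 reached the tested level and 8 exceeded 10 CPM. The highest were Fbln2, a matrix glycoprotein (507 CPM), Col1a2, a chain of type I collagen (280 CPM), and Postn, the matrix protein periostin (145 CPM). Others were scarce, such as Pi16 with 3.95, Ly6a with 2.10, Fbln1 with 1.42 and Dpt with 0.240 CPM. Which cells the reads of the abundant fibroblast genes came from was not tested. The 14 genes summed to 1148 ± 229 CPM in SCI, 1199 ± 69.7 CPM in sham and 1431 ± 577 CPM in naïve mice (SD, n = 5 each). Without naïve 4 the naïve sum was 1180 ± 158 CPM (SD, n = 4). Col1a2 reached 771 CPM in naïve 4 and 333 CPM or less elsewhere. In that library Dcn had 97.9 CPM, the second highest naïve value, and Lum 19.7 CPM, the lowest naïve value.

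Surgery was then examined by limma on log2 of CPM plus 1 over all 16000 genes, with Benjamini-Hochberg adjustment in each comparison and a threshold of 0.05. The comparisons of SCI with naïve, sham with naïve and all operated with naïve mice share the naïve libraries, and those of SCI with sham and sham with naïve mice share the sham libraries. In none of the 4 comparisons did a marker pass, and over all genes limma passed 0 (0% of 16000 in each). EdgeR on the recovered reads also passed 0 genes in each. DESeq2 passed 4 genes (0.025%) for SCI against sham mice, 233 (1.46%) for sham against naïve mice, 1 (0.00625%) for all operated against naïve mice and 0 for SCI against naïve mice, of which 0 were markers.

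Between SCI and naïve mice 2 of the 29 tested markers had an unadjusted p under 0.05 in limma, Cdh5 and Flt1, both higher in SCI mice. Of all genes 4.53% did so in either direction and 3.73% upward. Flt1 differed by 1.21 on the log2 scale (SE 0.43, 95% interval 0.30 to 2.12, unadjusted p = 0.0122, adjusted p = 0.898 from limma). Cdh5 differed by 1.00 (SE 0.42, 95% interval 0.10 to 1.89, adjusted p = 0.898 from limma) and was the only marker whose SCI libraries all exceeded the naïve ones, as 0.325% of all genes did. Both were higher under edgeR and DESeq2 as well at an unadjusted p under 0.05, a level reached upward by 1.72% and 1.12% of all genes. The differences of Cx3cr1 and Egfl7, next by p, were 1.00 (95% interval -0.27 to 2.27) and 0.26 (95% interval -0.09 to 0.62). Without SCI 2 the Cx3cr1 difference was 0.50, and without naïve 4 the Egfl7 difference was 0.11. Of the 29 markers 17 (58.6%) averaged higher on the log2 scale in SCI mice, against 69.7% of all genes. The median difference was -0.02 for the myeloid, 0.43 for the endothelial, 0.24 for the mural and -0.27 for the fibroblast markers, against 0.08 for all genes. Without naïve 1 and naïve 4, where S100a8 and S100a9 fell under the level tested, the medians were 0.25 for the 15 other myeloid, 0.23 for the endothelial, -0.07 for the mural and -0.06 for the fibroblast markers, so that the myeloid and mural directions turned. Naïve 1 and naïve 4 held the highest naïve myeloid sums (361 and 176 CPM) and the lowest naïve mural sums (111 and 124 CPM). Both turns thus follow in part from which libraries were left out.

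Between SCI and sham mice the smallest p-values belonged to Igf1 and Kdr, the only 2 markers with an unadjusted p under 0.05 and both lower in SCI mice. Of all genes 3.89% did so in either direction and 3.24% downward, and the same markers did so under edgeR (3.69% of genes downward) and DESeq2 (3.83%). Igf1 (GRCm38, chr10:87858265-87937042, plus strand), an insulin-like growth factor that macrophages can secrete, had 0.566, 2.15, 1.65, 1.55 and 0.349 CPM in SCI mice, 12.6, 4.88, 1.57, 3.98 and 5.79 CPM in sham mice, and 1.58, 1.95, 0.827, 0 and 1.83 CPM in naïve mice. Sham libraries other than sham 3 exceeded every SCI and naïve library. The difference of SCI and sham mice was -1.46 for Igf1 (SE 0.41, 95% interval -2.31 to -0.60, unadjusted p = 0.00213, adjusted p = 0.897 from limma) and -0.84 for Kdr (SE 0.26, 95% interval -1.40 to -0.29, unadjusted p = 0.00505, adjusted p = 0.897 from limma). Neither passed the adjustment, and in both genes all 5 SCI libraries lay at or under the sham median. Pdgfra and Acta2 followed, with -0.42 (95% interval -0.96 to 0.13) and 0.44 (95% interval -0.21 to 1.10), the second of which was 0.19 without sham 2. On the log2 scale 7 of 29 markers (24.1%) averaged higher in SCI mice, against 34.3% of all genes, and 15 of the 17 myeloid markers were lower. The median difference of the myeloid markers was -0.27, against -0.07 for all genes. Under edgeR and DESeq2 11 of the 17 were lower, with medians of -0.14 and -0.15.

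Between sham and naïve mice 3 markers had an unadjusted p under 0.05, Igf1, Kdr and Cdh5, all higher in sham mice. Of all genes 16.6% did so in either direction and 13.4% upward. At that level edgeR had Igf1 higher (3.88% of genes upward) and S100a9 lower (6.88% downward), and DESeq2 had Igf1 and Cdh5 higher (3.32% upward) and Lyz2 lower (8.04% downward). Igf1 differed by 1.49 on the log2 scale (SE 0.41, 95% interval 0.64 to 2.35, unadjusted p = 0.00173, adjusted p = 0.3 from limma) and Kdr by 0.64 (SE 0.26, 95% interval 0.09 to 1.19, adjusted p = 0.3 from limma). The difference of Cdh5 was 0.94 (SE 0.42, adjusted p = 0.301 from limma), and 0.54 without sham 2. That of Egfl7 was 0.34 (SE 0.17, adjusted p = 0.308 from limma). Egfl7 was the only tested marker whose sham libraries all exceeded the naïve ones, as 0.588% of all genes did, and its difference was 0.18 without naïve 4. Of the 29 markers 25 (86.2%) averaged higher in sham mice, against 77.1% of all genes, and the median difference was 0.29 for the myeloid and 0.58 for the endothelial markers, against 0.17 for all genes. The myeloid median was 0.16 with median-ratio scaling, against 0.04 for all genes. Without naïve 1 and naïve 4 it was 0.71, against 0.06 for all genes. There all 15 myeloid markers still tested averaged higher in sham mice, against 65.4% of all genes. Those libraries were left out for their depth, but they also held the highest naïve myeloid sums (361 and 176 CPM). The larger myeloid difference in that setting thus follows in part from which libraries were left out. When naïve 5, the deepest naïve library, was left out, limma passed 1752 genes (11% of those tested) in this comparison, among them 1 marker, Igf1, with a difference of 1.60 and an adjusted p of 0.0352. For all operated against naïve mice that setting passed 908 genes (5.68%) and 0 markers. Sham and naïve mice thus differed in Igf1 past the threshold only in that setting among the alternatives run.

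For all 10 operated against 5 naïve mice the smallest p-values were those of Cdh5, Flt1 and Igf1, the 3 markers with an unadjusted p under 0.05, all higher in operated mice. Of all genes 11.4% did so in either direction and 9.99% upward. At that level edgeR had Cdh5 and Flt1 higher (2.33% of genes upward), and DESeq2 had the same markers higher (1.89% upward) and Lyz2 lower (4.94% downward). The differences were 0.97 for Cdh5 (95% interval 0.19 to 1.74), 0.97 for Flt1 (95% interval 0.18 to 1.76), 0.77 for Igf1 (95% interval 0.03 to 1.51) and 0.30 for Egfl7 (95% interval -0.01 to 0.61), each with an adjusted p of 0.429 from limma. Of the 29 markers 23 (79.3%) averaged higher in operated mice, against 75.5% of all genes. All 6 tested endothelial markers were higher in mean, with a median difference of 0.44 against 0.13 for all genes. With depth as a term 5 of the 6 were higher, with a median of 0.27, and without naïve 1 and naïve 4 the median was 0.24. In CPM, 8 of 10 operated libraries exceeded the highest naïve library in Cdh5 and in Egfl7. The share of all genes that did so was not counted. In Egfl7 the margin was narrow for sham 5, with 18.24 CPM against 18.19 CPM in naïve 1.

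**Figure D5:**
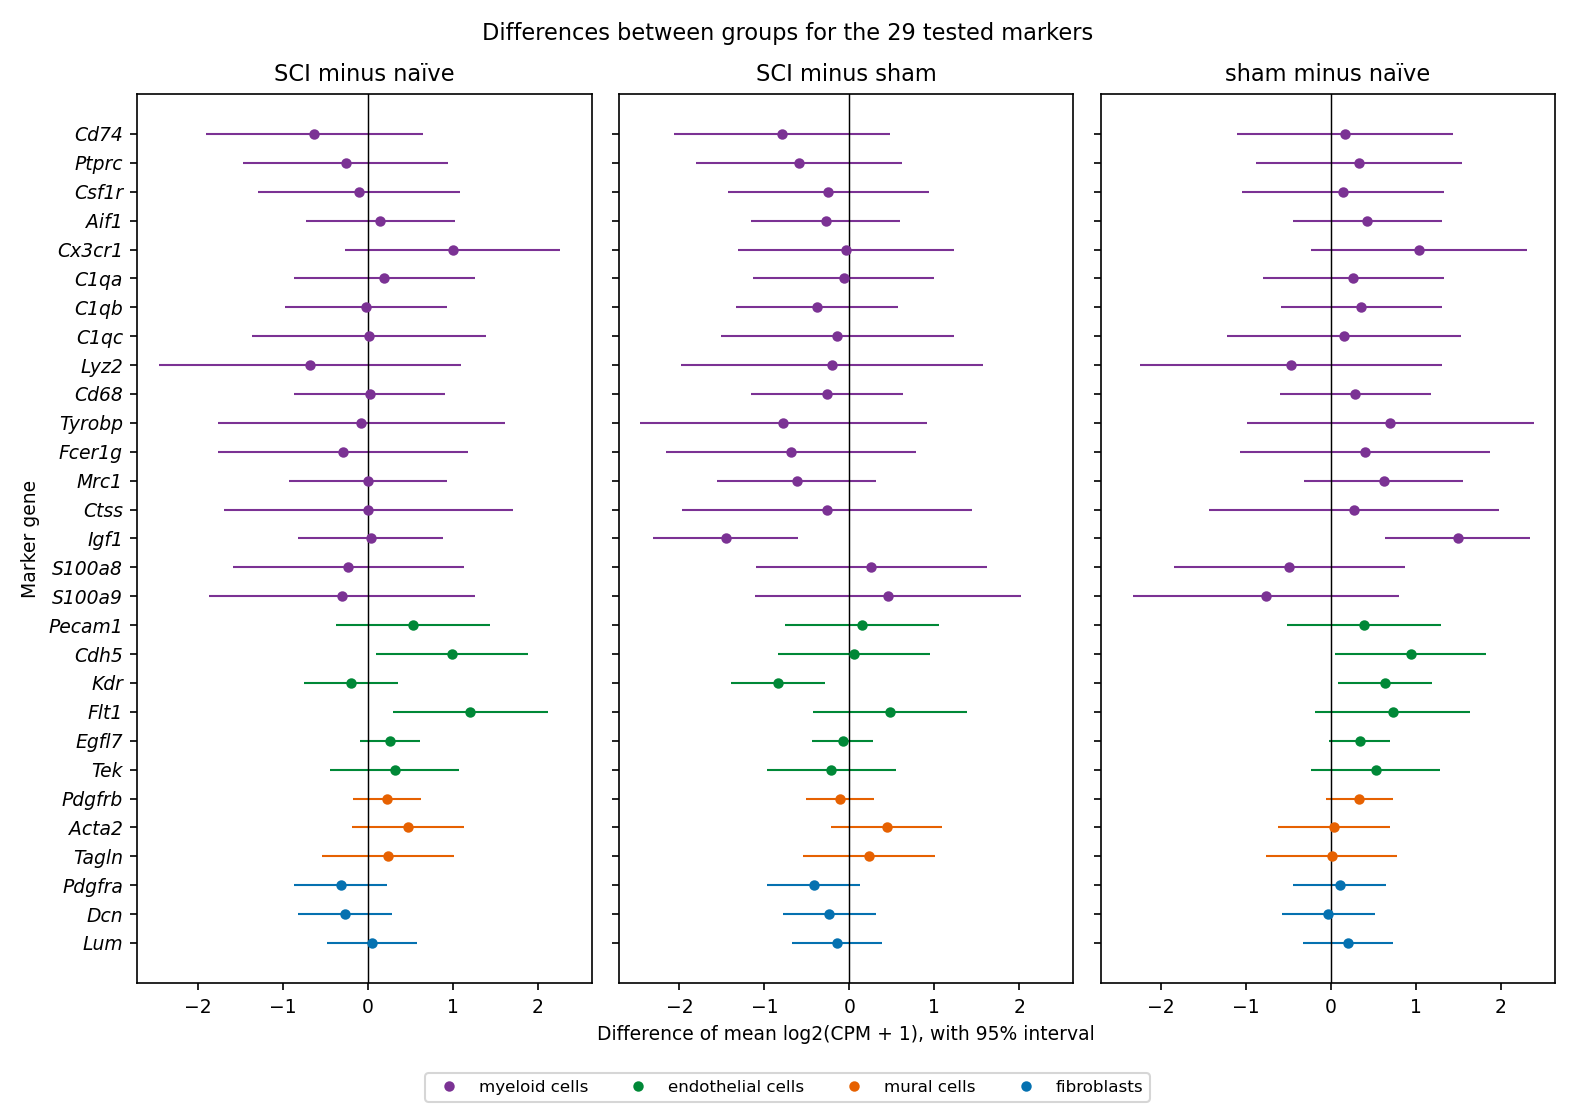
Difference of mean log2(CPM + 1) between groups for the 29 tested markers, as SCI minus naïve, SCI minus sham and sham minus naïve from left to right. Points are limma estimates and lines their 95% intervals. Intervals leave out 0 for Cdh5 and Flt1 in SCI minus naïve, for Igf1 and Kdr in SCI minus sham, and for Igf1, Cdh5 and Kdr in sham minus naïve, and no marker passed after adjustment over 16000 genes.

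The precision of these comparisons differed by class. The half-width of the 95% interval of SCI minus naïve was 0.85 to 1.78 on the log2 scale for myeloid, 0.36 to 0.91 for endothelial, 0.40 to 0.78 for mural and 0.53 to 0.55 for fibroblast markers. Among the myeloid markers the intervals reached between -2.46 and 2.27.

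Of the genes of other lists, 0 passed in limma in any comparison. Of the 12 tested further macrophage genes 6 averaged higher on the log2 scale in SCI against naïve mice, 0 in SCI against sham mice and 9 in sham against naïve mice. Of the 9 further endothelial genes tested these counts were 9, 4 and 8, of the 10 further mural genes 9, 3 and 9, and of the 13 further fibroblast genes 8, 3 and 10. Of the 6 tested complement partners of C1q they were 4, 4 and 5, of the 6 class II genes 1, 1 and 4, and of the 13 partners of the receptors and of Igf1 11, 7 and 11. Of all genes 69.7%, 34.3% and 77.1% averaged higher in these comparisons. Several counts lay near those shares, such as 75.0% of further macrophage and 76.9% of further fibroblast genes in sham against naïve mice. The 10 sensory neuron genes went the other way from all genes, with counts of 0, 10 and 0. C4b, C1s1 and C2, which act after C1q in the classical complement pathway, had means of 108, 12.5 and 5.19 CPM. The sums of the satellite glia genes were 2304 ± 180.1 CPM in SCI, 2003 ± 289 CPM in sham and 2655 ± 690.2 CPM in naïve mice, and those of the Schwann cell genes 1724 ± 88.8 CPM in SCI, 1594 ± 229 CPM in sham and 2146 ± 502 CPM in naïve mice (SD, n = 5 each). Their part in the marker differences was not tested.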

How the data were processed

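The authors sorted the cells, prepared stranded polyadenylated RNA libraries and read single ends of 75 nt. The submitters' processing notes name HISAT2, HTSeq, DESeq2 and mm10, and their versions, the annotation and the strand setting are not given in the sources used here. The deposited signal values are headed RPKM. Divided by the smallest step of its library, each value came out whole (0 values outside a tolerance of 1e-06 of a read), with the same step for long and short genes. Whole reads per gene were therefore recovered, and the deposited values are called CPM here. The authors' group means were not used. Of 54232 gene lines, 27 with a number in place of a name (at most 0.21% of a library's reads) were left out, and of 97 repeats of a symbol the line with the highest mean was kept.

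Gene positions and exon lengths came from GENCODE M21 (GRCm38) and promoters from RefSeq (GRCm38.p6, 20 of 30 markers matched). Differences between groups came from limma 3.58.1 (R 4.3.3) on log2 of the value plus a pseudocount of 1, for the 16000 genes averaging 1 or more, with 1 mean per group over all 15 libraries, a variance trend, and Benjamini-Hochberg adjustment at 0.05. The fits were tested on simulated data. Fold changes on this scale are understated for low genes. Alternatives were edgeR 4.0.16 and DESeq2 1.42.0 on recovered reads, pseudocounts of 0.25 and 5, no filter, a mean of at least 10, median-ratio scaling, scaling to all reads, depth as a term, the replicate number as a block, only the groups compared, each library left out in turn, and the 2 shallowest left out together. PCR duplicates cannot be recognized in these values, so counting intervals cover counting error only.

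The markers, the 13 further lists, the comparisons and the rule for named genes were chosen with earlier results of these data known. By that rule the difference is printed for each marker that passed and for the 4 with the smallest p in each comparison, and of each further list the 3 genes with the highest mean are named. Other genes and the promoters were chosen after their values were seen. Whether same-numbered libraries deviate together was checked over 15 pairs: correlations ran from -0.35 to 0.34 and 3 exceeded 0.1. These values show no pairing of mice by number, but they cannot exclude one.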

Additional observations from a re-analysis of the deposited data

Results flagged for a closer look

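In each group of 5 libraries the highest or lowest value was set against the rest, by its gap to the nearest library over the group's range. Of 87 such groups (29 markers in 3 groups) 20 were marked, where chance marks about 1 in 20 groups of normally distributed values. That rate does not apply to markers with few reads: the gap equals the whole range wherever 4 of 5 libraries have 0 reads, as for S100a8 in SCI and S100a9 in sham and naïve mice. Markers share libraries, so these are not independent. Naïve 1, the shallowest library, accounted for 6 of them: Ptprc with 11.1 CPM, Lyz2 with 149 CPM, Cd68 with 17.4 CPM, Fcer1g with 12.7 CPM, S100a8 with 11.9 CPM and S100a9 with 22.9 CPM, each the highest of its group. In SCI 3 they were Tyrobp with 9.56 CPM, S100a8 with 5.60 CPM and S100a9 with 5.60 CPM, as the highest SCI values, and Pdgfra with 5.27 CPM, as the lowest. In sham 4 Tyrobp with 44.6 CPM, Fcer1g with 19.9 CPM and S100a9 with 0.724 CPM lay above the other sham libraries, the last on 4 reads. In SCI 2 Cx3cr1 with 12.2 CPM and C1qa with 14.6 CPM lay above the other SCI libraries.

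Among the rest, Cx3cr1 stood out in naïve 3 with 4.55 CPM, Cdh5 in SCI 1 with 4.24 CPM and in sham 2 with 6.91 CPM, and Egfl7 in sham 1 with 22.6 CPM, all as the highest of their group. Aif1 was lowest in sham 2, with 0.813 CPM.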

How the results depend on the processing

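Over all genes, the counts that passed were 0 in the 4 comparisons under limma and 4, 233 and 1 under DESeq2 for SCI against sham, sham against naïve and operated against naïve mice. Leaving out each library in turn gave 0 to 1752 genes for sham against naïve and 0 to 908 for operated against naïve mice, with 0 to 1 marker in the first, and the highest counts were without naïve 5. The other alternatives, the replicate block included, passed 0 genes and 0 markers in each comparison. Of 417 values of the 16 printed differences under alternatives, 0 changed direction and 1, Igf1 without naïve 5, crossed the threshold. Without leaving libraries out, the smallest adjusted p among them was 0.278. Median-ratio scaling moved the median of all genes in sham against naïve mice to 0.04, against 0.17 in the main scaling. There 22 of 29 markers stayed higher, against 25, but of the 3 mural markers 1 was higher, against 3, and with depth as a term 0. Without naïve 1 and naïve 4, the median myeloid difference of SCI and naïve mice was 0.25, against -0.02, and the mural one -0.07, against 0.24. Both libraries had the highest myeloid and lowest mural sums of the naïve group, so these shifts follow in part from leaving them out. Depth limits the scarce markers: 3 reads equal 2.37 CPM in naïve 1.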
